A study of Mus musculus with 6 samples.

Results

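Transcripts of 10 immediate-early transcription factors were examined in mouse CD8+ T cells cultured with or without DOPAC. The genes were Fos, Fosl2, Jun, Junb, Jund, Egr1, Egr2, Egr3, Nr4a1 and Nr4a3, chosen by symbol as the FOS, JUN, EGR and NR4A members of the early response to the antigen receptor. All 10 were among the 11175 genes listed, and all 10 were above a mean of 1 FPKM over the 6 libraries, the level needed to enter the comparison, as were 10887 genes in all. FPKM, the authors' estimate of transcript fragments, is a level corrected for gene length and library size. Differences between libraries still varied with exon length and GC content, so levels of different genes can be set side by side only roughly.

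When the T cell receptor and CD28 are engaged, MAP kinase and calcium signals switch on most of these genes before new protein is made. The transcripts of such genes decay fast once the signal falls. FOS and JUN proteins pair through leucine zippers to form AP-1, which binds DNA together with NFAT at cytokine genes. EGR proteins are zinc-finger factors, of which EGR2 and EGR3 are known to restrain T cells, and NR4A proteins are orphan nuclear receptors whose transcripts report antigen receptor signalling and which are tied to tolerance and exhaustion.

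The libraries came from wild-type mouse spleen CD8+ T cells stimulated for 48 h with antibodies to CD3 and CD28. A group of 3 libraries had no DOPAC (control), and the other group of 3 libraries was cultured with DOPAC (3,4-dihydroxyphenylacetic acid), a catechol made when dopamine is broken down. The labels give no strain, age or DOPAC dose and do not say whether replicates were separate animals or cultures. The p-values therefore cover the variation among these 6 libraries alone, and that variation could be technical. Both groups were stimulated and sampled at the same time, so the comparison speaks to the effect of DOPAC and not to induction by the receptor.

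The defining CD8 markers were high in each library (Cd8a from 153 to 202 FPKM, Cd8b1 from 135 to 170 FPKM), and the 6 T cell markers summed to between 438 and 509 FPKM. Control replicate 1 stood apart, with a Pearson's r of log2(FPKM + 1) across genes of 0.899 to 0.917 to the other libraries, where those gave 0.974 to 0.992 among themselves. Its difference from the mean of control replicates 2 and 3 had a median of 0.54 on the log2 scale for genes with up to 1000 bases of exon and -0.70 for those with over 8000 bases. Results are therefore also given without it where they change.

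At 48 h the members spanned a wide range of levels, from a mean over 6 libraries of 2.67 FPKM for Fos to 52.5 FPKM for Jund. Junb averaged 46.4 FPKM, Nr4a3 39.1 FPKM, Nr4a1 27.5 FPKM, Egr3 22.6 FPKM, Egr1 13.1 FPKM and Egr2 9.21 FPKM, while Jun (3.79 FPKM) and Fosl2 (3.72 FPKM) lay near the low end with Fos. By these means Jund lay above 91.9% of the genes tested and Fos above 20.4%. The mean of Jund rested on the replicate 1 libraries, at 92.5 FPKM in control and 168 FPKM with DOPAC. In replicates 2 and 3 of both groups Jund measured 8.64 to 20.6 FPKM, below Junb, Nr4a3, Nr4a1 and Egr3 in each library. In the controls the ranges of neighbours in this order overlapped except between Egr3 and Egr1, and between Egr2 and Jun. In the DOPAC libraries Nr4a3, Nr4a1, Egr3, Egr1, Egr2 and Fosl2 formed an order in which no neighbours overlapped, while Jund overlapped Junb, Junb overlapped Nr4a3, and Fosl2 overlapped Jun.

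**Figure D1:**
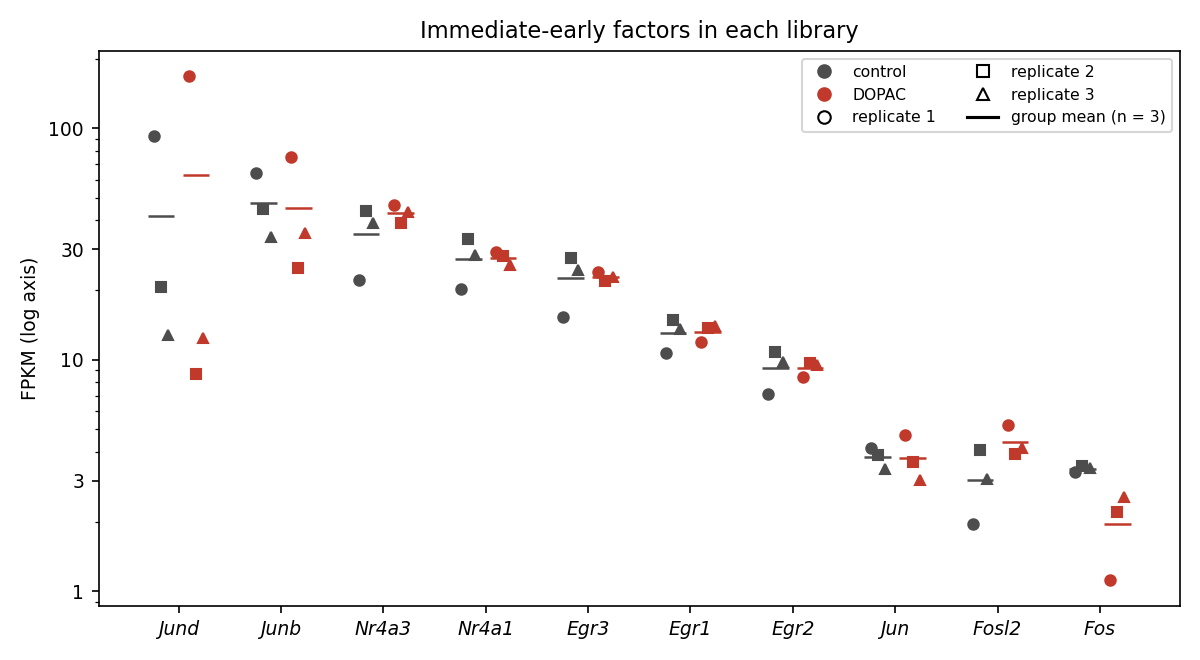
FPKM (log axis) of each member in each library, with control in grey, DOPAC in red, symbols for replicate numbers and short lines for group means (n = 3). Jund runs from 8.64 to 168 FPKM with both replicate 1 libraries on top, and Fos is the member whose DOPAC values all lie below the controls.

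With DOPAC, no member was called different from control. Over all 10887 genes limma's moderated test with Benjamini-Hochberg adjustment called 0 genes (0% at an adjusted p under 0.05, lowest adjusted p 0.801), while 456 genes had an unadjusted p under 0.05. Among the members 1 of 10, Fos, had an unadjusted p under 0.05, where the share over all genes was 4.19% (1.46% lower and 2.73% higher with DOPAC). The groups did not overlap in 1 of 10 members, again Fos, where the share over all genes was 17.2%, with 4.80% lower and 12.4% higher with DOPAC. The median log2 fold change, taken throughout on the log2(FPKM + 1) scale, which understates the change of low genes, was 0.018 over the members and 0.066 over all genes. Of the 10 members 6 had positive values and 4 negative ones, which became 3 and 7 when the library medians were made equal, 5 and 5 without control replicate 1, and 1 and 9 without both replicate 1 libraries. With trends on GC content and length removed they became 9 and 1. Over all genes the medians without control replicate 1 and without both replicate 1 libraries, fits with 2 libraries in at least 1 group, were -0.011 and -0.019.

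**Figure D2:**
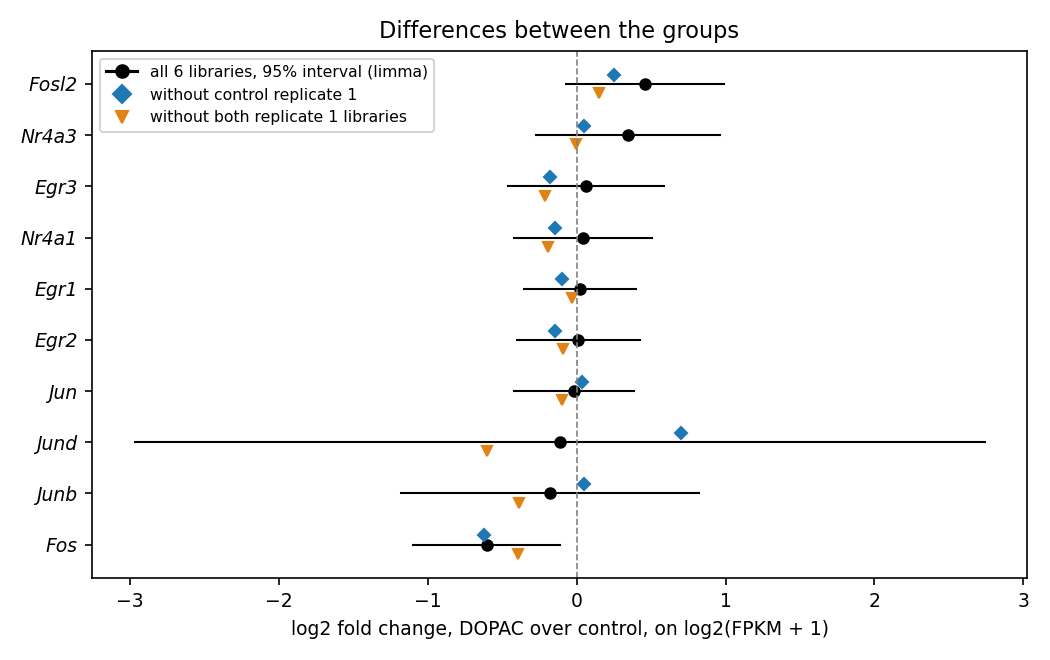
Log2 fold change of each member, DOPAC over control, on log2(FPKM + 1), with 95% intervals of the limma fit to all 6 libraries (black), and the values without control replicate 1 (blue) and without both replicate 1 libraries (orange). The interval of Fos, -1.10 to -0.11, leaves out 0, and that of Jund, from -2.97 to 2.74, is the widest of the 10.

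Among the FOS members, Fos was lower and Fosl2 higher in the means of the DOPAC libraries, neither past the adjusted threshold. Fos, which encodes the partner of JUN proteins in classical AP-1, measured 3.29, 3.48 and 3.39 FPKM in control replicates 1 to 3 and 1.11, 2.19 and 2.55 FPKM with DOPAC. All 3 DOPAC values lay below all 3 controls, with DOPAC replicate 1 the lowest. The means were 3.39 ± 0.0947 and 1.95 ± 0.749 FPKM (SD, n = 3 each), a ratio of means of 0.577, and DOPAC minus control on the log2 scale came to -0.61 (95% interval -1.10 to -0.11; limma adjusted p = 0.801). The unadjusted limma p was 0.0232, while an exact permutation test of 3 against 3 libraries cannot go below 0.1. The unadjusted limma p passed 0.05 without control replicate 2 (0.0563), without control replicate 3 (0.0574) and with trends on GC content and length removed (0.0650), where an exact permutation test cannot reach 0.05 either. With those trends removed and the replicate number as a block, the unadjusted limma p was 0.0125. An exact permutation test within replicate numbers has fewer arrangements, so its lowest p is above 0.1. With the trends removed the log2 fold change was -0.51 with or without the block. Without DOPAC replicate 1 the log2 fold change was -0.38, and without both replicate 1 libraries -0.40. The authors' deposited table lists the same log2 fold change of -0.61 with a p-value of 0.0231 and an adjusted p-value of 0.801.

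Fos is expressed by many cell types, and summed markers of some other cell types were also lower in the DOPAC libraries. The 4 stromal markers, 4 of 4 measured, summed to between 31.6 and 34.4 FPKM in the controls, and to 6.47, 21.9 and 21.5 FPKM in DOPAC replicates 1 to 3. The lower sums came from the collagen genes Col1a1, Col1a2 and Col3a1, whose groups did not overlap, whereas the endothelial gene Pecam1 overlapped and made up 6.14 of the 6.47 FPKM in DOPAC replicate 1. Col1a1 measured 16.2, 15.1 and 13.96 FPKM in control and 0.160, 9.12 and 9.16 FPKM with DOPAC, so that DOPAC replicate 1 was lowest for both Col1a1 and Fos. Macrophage markers, of which Lyz2 and Cd68 were measured among 6, summed to between 14.2 and 33.8 FPKM in the controls and between 4.45 and 12.4 FPKM with DOPAC. Erythroid markers, 2 of 5 measured, summed to 2.72 to 10.4 FPKM and 0.280 to 3.02 FPKM, and the B cell marker Cd79b, 1 of 5, lay between 1.47 and 2.61 FPKM in all libraries. None of the markers measured was at 0 in a library, and the part of these cells in the Fos values was not tested. In bulk RNA, fewer cells of a type and less RNA per cell cannot be told apart.

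**Figure D3:**
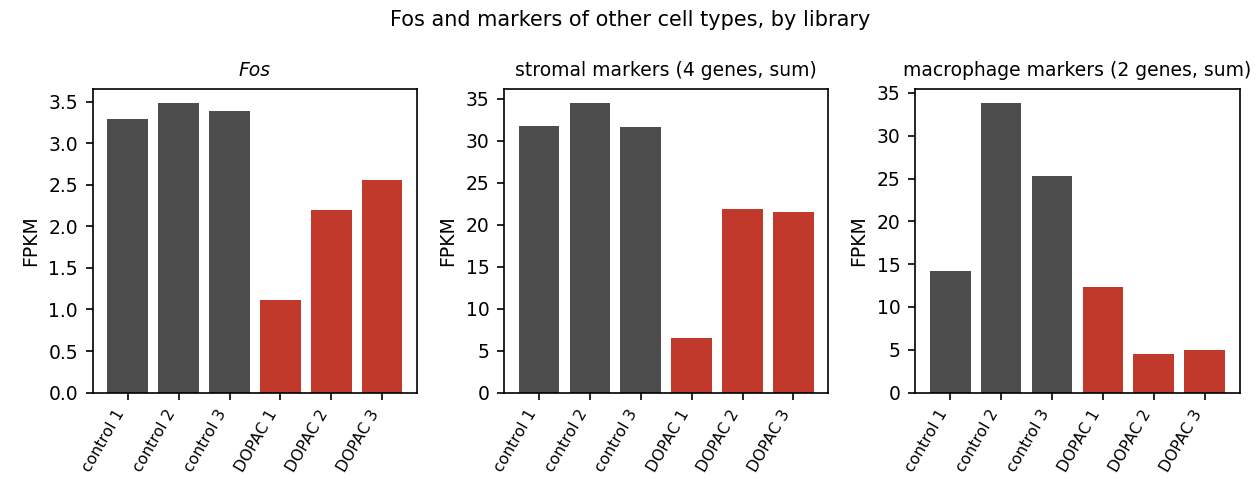
FPKM per library (bars, axes from 0) of Fos, of the summed stromal markers Col1a1, Col1a2, Col3a1 and Pecam1, and of the summed macrophage markers Lyz2 and Cd68, controls in grey and DOPAC in red. Fos and the stromal sum are both lowest in DOPAC replicate 1, at 1.11 and 6.47 FPKM, while the macrophage sum is lowest in DOPAC replicate 2, at 4.45 FPKM.

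The Fos promoter is shown because Fos was the member whose groups did not overlap. The window holds the 250 bases before and 50 bases after the RefSeq start (GRCm38.p6, chr12:85473640-85473939, plus strand), and the gene lies at chr12:85473890-85477273 in GENCODE M21. Capitals mark the half-site TGACG of the cAMP response element, the sequence bound by CREB and ATF proteins, searched on both strands and held by 20.8% of all 32851 promoter windows. It occurs here at bases -129 to -125 and -66 to -62 from the start. The half-site was in 7 of the 12 windows held for 8 members, those of Egr2, Junb, Nr4a1 and Nr4a3 besides Fos. It was thus shared by members whose groups overlapped.
Fos: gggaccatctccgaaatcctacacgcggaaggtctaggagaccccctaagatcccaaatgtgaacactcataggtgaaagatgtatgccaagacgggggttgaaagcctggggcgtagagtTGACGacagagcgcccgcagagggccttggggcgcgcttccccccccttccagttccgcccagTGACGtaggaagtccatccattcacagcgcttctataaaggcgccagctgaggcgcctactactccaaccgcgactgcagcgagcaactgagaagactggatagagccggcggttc
This half-site is part of the full element TGACGTCA and was searched after the values were seen. The full element, the AP-1 sites TGACTCA and TGAGTCA, the EGR site GCGTGGGCG and the NR4A site AAAGGTCA were in 0 of the 12 windows held for 8 of the 10 members, where 1.79%, 5.20%, 0.612% and 1.51% of all windows have them. At such shares, finding none in so few windows, some of them overlapping, says little. The Jund window (chr8:70697489-70697788) also ends before the GENCODE M21 start of the gene at 70698949. The matches shown describe letters and not binding.

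Fosl2, which encodes the FOS-related factor FRA2, measured 1.94, 4.09 and 3.04 FPKM in the control libraries and 5.20, 3.91 and 4.15 FPKM with DOPAC. The groups overlapped, since control replicate 2 lay above DOPAC replicate 2, and control replicate 1 was the lowest library. The means were 3.03 ± 1.07 and 4.42 ± 0.688 FPKM (SD, n = 3 each), with a log2 fold change of 0.46 (95% interval -0.07 to 0.99; limma adjusted p = 0.801). Without control replicate 1 the value was 0.25, and without both replicate 1 libraries 0.15. The gene lies at chr5:32135801-32157842. The level of Fos over that of Fosl2 was 1.69, 0.850 and 1.11 in control and 0.214, 0.560 and 0.615 with DOPAC. This ratio of FPKM did not overlap between the groups, was picked after the values were seen among 8 ratios of members computed, and was not tested. Fos has 2352 and Fosl2 9680 bases of exon, and the levels in control replicate 1 varied with exon length.

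The JUN members differed more between replicate numbers than between treatments. Jund, which encodes the JUN protein known for steady expression, measured 92.5, 20.6 and 12.7 FPKM in control replicates 1 to 3 and 168, 8.64 and 12.4 FPKM in DOPAC replicates 1 to 3. The replicate 1 library was the highest in both groups, and the groups overlapped. The means were 41.9 ± 44.0 and 63.1 ± 91.1 FPKM (SD, n = 3 each), while the log2 fold change had the opposite sign, at -0.12 (95% interval -2.97 to 2.74; limma adjusted p = 0.984). It ran from -1.41 without DOPAC replicate 1 to 0.70 without control replicate 1, and was -0.60 without both.

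Junb, whose product is an activation-induced JUN protein, was also highest in the replicate 1 library of each group, to a smaller degree, at 64.0, 44.9 and 33.9 FPKM in control and 75.1, 24.9 and 35.3 FPKM with DOPAC. The means were 47.6 ± 15.3 and 45.1 ± 26.5 FPKM (SD, n = 3 each), with a log2 fold change of -0.18 (95% interval -1.18 to 0.82; limma adjusted p = 0.907), which turned to 0.05 without control replicate 1 and to 0.16 without DOPAC replicate 2. Jun, the founding AP-1 subunit, measured 4.16, 3.86 and 3.37 FPKM in the control libraries and 4.71, 3.60 and 3.01 FPKM with DOPAC. Its means were 3.80 ± 0.402 and 3.77 ± 0.864 FPKM (SD, n = 3 each), and its log2 fold change of -0.019 (95% interval -0.42 to 0.38; limma adjusted p = 0.980) was within the spread between replicates. Jund and Junb together held 64.8% of the members' summed FPKM in control replicate 1 and 64.9% in DOPAC replicate 1, and between 21.6% and 31.6% in the other 4 libraries.

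The excess in replicate 1 placed Jund near the top of all genes. On the log2(FPKM + 1) scale it lay 2.44 above the mean of replicates 2 and 3 in the controls, rank 119 of 10887 genes, and 3.90 above it with DOPAC, rank 2. For Junb the differences were 0.70 and 1.31 (ranks 1034 and 64), and for Jun 0.16 and 0.41 (ranks 2456 and 735). Jun, Junb and Jund have 1 exon in their longest GENCODE M21 transcript, and Jund (chr8:70698949-70700616) has a GC content of 67.1% there, Junb (chr8:84974484-84978718) 62.6% and Jun (chr4:95049034-95052222) 55.5%, where the median over the genes tested is 49.3%. For the 22 genes over 65% GC, Jund among them, replicate 1 lay above replicates 2 and 3 by a median of 0.79 in the controls and 0.50 with DOPAC. For the 290 genes between 60% and 65%, Junb among them, the medians were 0.00038 and 0.15. The part of GC content in the JUN values was not tested directly. When trends on GC and exon length were taken out of each library, a setting added once the values were known, the log2 fold changes became 0.22 for Jund, 0.05 for Junb and 0.06 for Jun.

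**Figure D4:**
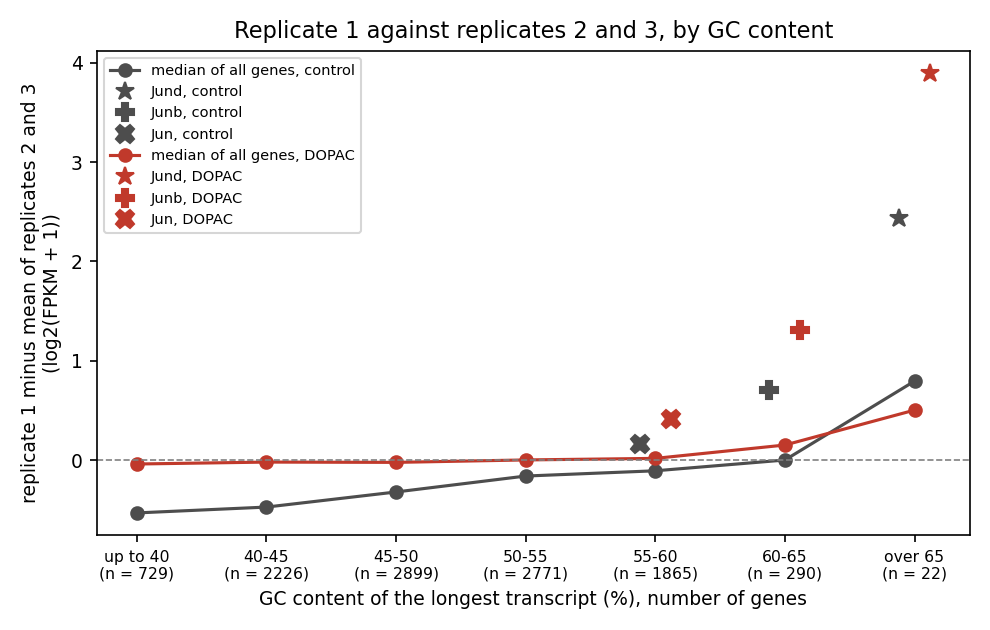
Difference between replicate 1 and the mean of replicates 2 and 3 on the log2(FPKM + 1) scale, by GC content of the longest transcript, as medians over all genes tested in each bin (lines, control grey and DOPAC red) and for Jund, Junb and Jun (symbols). Jund lies at 2.44 and 3.90, above the bin medians of 0.79 and 0.50.

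The labels do not say that counting used the strand, and exons of Junb overlap Prdx2 on the opposite strand, those of Jun overlap Junos and those of Jund overlap Gm11175. Prdx2, a peroxiredoxin gene, stayed between 30.4 and 35.3 FPKM in all 6 libraries. Junos and Gm11175 are not among the genes listed, so their levels could not be examined here.

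The EGR members were close to level between the groups. Egr1, the best-known zinc-finger factor of the immediate-early response, measured 10.7, 14.9 and 13.5 FPKM in control and 11.9, 13.8 and 13.9 FPKM with DOPAC. Egr2 measured 7.10, 10.8 and 9.81 FPKM in the control libraries and 8.44, 9.66 and 9.49 FPKM with DOPAC. Egr3 measured 15.4, 27.6 and 24.4 FPKM in control and 23.9, 21.9 and 22.7 FPKM with DOPAC. In each of these genes control replicate 1 was the lowest library and control replicate 2 the highest, so that the DOPAC values lay inside the range of the controls.

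Group means of Egr1 were 13.0 ± 2.13 and 13.2 ± 1.13 FPKM (SD, n = 3 each), with a log2 fold change of 0.025 (95% interval -0.35 to 0.40; limma adjusted p = 0.969). Those of Egr2 were 9.22 ± 1.898 and 9.20 ± 0.659 FPKM (SD, n = 3 each), with 0.012 (95% interval -0.40 to 0.42; limma adjusted p = 0.989). For Egr3 they were 22.5 ± 6.36 and 22.8 ± 1.05 FPKM (SD, n = 3 each), with 0.061 (95% interval -0.46 to 0.58; limma adjusted p = 0.939). Without control replicate 1 the values were -0.10 for Egr1, -0.15 for Egr2 and -0.18 for Egr3, and those of Egr1 and Egr2 were also below 0 without DOPAC replicate 2 or without DOPAC replicate 3. Without both replicate 1 libraries Egr3 had -0.21 (limma adjusted p = 0.288). Egr2 lies at chr10:67535475-67542188 and Egr3 at chr14:70077203-70082614.

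The Egr2 promoter is shown because it was the 1 member, of the 8 with a RefSeq window, that holds a CArG box, the site of serum response factor through which MAP kinase signals reach immediate-early genes. The box was searched on both strands and occurs in 1.63% of all windows. It is in 4 of the 5 windows of Egr2, of which 3 overlap and share it. The window printed runs from chr10:67537619-67537918 (GRCm38.p6, plus strand), and capitals mark the CArG box at -72 to -63 from the start and the TGACG half-sites on either strand.
Egr2: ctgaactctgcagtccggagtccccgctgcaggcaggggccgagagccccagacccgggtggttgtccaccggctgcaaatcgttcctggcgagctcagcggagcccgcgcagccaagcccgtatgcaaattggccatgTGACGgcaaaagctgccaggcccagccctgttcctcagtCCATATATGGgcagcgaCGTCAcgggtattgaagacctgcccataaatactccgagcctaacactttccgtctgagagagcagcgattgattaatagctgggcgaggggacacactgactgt
The windows held reach 250 bases upstream, so sites farther out were not searched.

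Among the NR4A members, Nr4a3 had the larger difference, which rested on control replicate 1. Nr4a3, which encodes the orphan receptor NOR1, measured 22.02, 44.1 and 38.9 FPKM in the control libraries and 46.8, 38.9 and 43.7 FPKM with DOPAC. Control replicate 1 lay far below the other 5 libraries, which overlapped between the groups. The means were 35.0 ± 11.6 and 43.1 ± 3.96 FPKM (SD, n = 3 each), with a log2 fold change of 0.35 (95% interval -0.27 to 0.97; limma adjusted p = 0.801), or 0.05 without control replicate 1. Nr4a1, which encodes NUR77, the usual reporter of antigen receptor strength, measured 20.3, 33.2 and 28.4 FPKM in control and 29.3, 28.0 and 25.6 FPKM with DOPAC. Its means were 27.3 ± 6.50 and 27.6 ± 1.91 FPKM (SD, n = 3 each), with a log2 fold change of 0.042 (95% interval -0.42 to 0.50; limma adjusted p = 0.956), which turned to -0.15 without control replicate 1 and to -0.00095 without DOPAC replicate 1. Nr4a3 lies at chr4:48045153-48086447 and Nr4a1 at chr15:101254269-101274795.

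Nr4a3 was the more abundant of the pair in each library. The level of Nr4a3 over that of Nr4a1 was 1.09, 1.33 and 1.37 in control and 1.60, 1.39 and 1.71 with DOPAC. The groups did not overlap in this ratio, but DOPAC replicate 2 lay just above control replicate 3, and this ratio was likewise picked after the values were seen and not tested. Nr4a3 and Nr4a1 also differ in exon length, at 5987 and 3509 bases.

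The spread between replicates set what could be seen. The coefficient of variation over the 3 controls was 2.80% for Fos, 10.6% for Jun, 16.4% for Egr1 and 33.0% for Nr4a3, and 105% for Jund. Over the 3 DOPAC libraries it was 38.4% for Fos and 144% for Jund, but at most 9.18% for Egr1, Egr2, Egr3, Nr4a1 and Nr4a3. Control replicate 1 was the lowest of the 6 libraries for 6 of the 10 members, namely Fosl2, Egr1, Egr2, Egr3, Nr4a1 and Nr4a3. Since the table gives FPKM and no counts, read depth is not known here, and intervals for counting error could not be computed.

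Genes around the members were taken from lists by role, and none passed the adjusted threshold with all libraries weighted equally. With library weights Nfil3 and Ndrg1 passed it (limma adjusted p = 0.0312 for each). Positive log2 fold changes were also the more frequent over all genes tested, at 6761 of 10887. Among other AP-1 and related bZIP factors 8 of the 11 tested had positive log2 fold changes (median 0.16), and 1 had an unadjusted p under 0.05. This was Atf3, a stress-induced factor that pairs with JUN proteins, at 4.49, 4.34 and 3.85 FPKM in the control libraries and 13.2, 6.70 and 11.5 FPKM with DOPAC. All DOPAC values lay above the controls, with a log2 fold change of 1.09 (95% interval 0.52 to 1.66; limma adjusted p = 0.801). Nr4a2, the other NR4A receptor gene, had 0.37 (95% interval -0.14 to 0.87), the smallest p of the 3 tested among other EGR and NR4A factors and EGR corepressors (2 positive, 1 negative, median 0.14). It had 0.19 without control replicate 1 and 0.059 without both replicate 1 libraries.

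Upstream of the members, 1 of 11 regulators of the SRF, TCF, CREB and MEF2 families and 1 of 15 MAP kinase genes had an unadjusted p under 0.05, both higher. Crem, a cAMP-responsive modulator, measured 4.70 ± 0.761 and 6.89 ± 1.22 FPKM (SD, n = 3 each), with a log2 fold change of 0.47 (95% interval 0.06 to 0.87; limma adjusted p = 0.801). Map2k1, the kinase MEK1 that activates ERK, measured 21.4 ± 5.05 and 31.8 ± 2.88 FPKM (SD, n = 3 each), with 0.57 (95% interval 0.11 to 1.03; limma adjusted p = 0.801). Without both replicate 1 libraries Map2k1 had 0.32, and with GC and length trends removed Crem had 0.30. The first list had 6 positive and 5 negative values with a median of 0.0024, and the kinases 11 positive and 4 negative with a median of 0.15.

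Of 28 other immediate-early response genes tested, 16 had positive and 12 negative log2 fold changes (median 0.085), and 1 higher and 2 lower genes had an unadjusted p under 0.05. Nfil3, a bZIP repressor gene, had 0.59 (95% interval 0.20 to 0.98). Gadd45b, a stress gene, had -0.40 (95% interval -0.73 to -0.08), and Dusp1, a phosphatase that switches MAP kinases off, measured 2.02 ± 0.0882 and 1.48 ± 0.131 FPKM (SD, n = 3 each), with -0.29 (95% interval -0.55 to -0.02). In these 3 genes the groups did not overlap, and each had a limma adjusted p of 0.801. The groups also did not overlap in Dusp2 and Nfkbid, lower with DOPAC, and in Dusp5, Dusp6, Klf6, Rgs1, Rgs2 and Irf4, higher with DOPAC. The share without overlap over all genes was 17.2%. With GC and length trends removed Gadd45b had -0.16 and an unadjusted p above 0.05, and Dusp1 was above 0.05 with the replicate block.

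Genes linked to the functions of the members gave a similar picture. Among tolerance genes linked to EGR2 and EGR3, 10 of 12 were positive (median 0.24), and Ndrg1, also known to be induced by low oxygen, had an unadjusted p under 0.05 with 1.18 (95% interval 0.61 to 1.75). Among those linked to NR4A factors, 3 of 5 were positive (median 0.11), and Ctla4, an inhibitory receptor gene, had 0.82 (95% interval 0.31 to 1.33). Of 8 AP-1 and NFAT cytokine targets tested, 3 were positive and 5 negative (median -0.090), with Ifng at 0.74 (95% interval 0.19 to 1.29). Of 7 genes of AP-1 turnover and its kinases 5 were positive (median 0.087), none with an unadjusted p under 0.05, and Csnk2a1, a casein kinase subunit gene, had the smallest p, with 0.40 (95% interval -0.05 to 0.85), or 0.21 without control replicate 1. Without both replicate 1 libraries Ctla4 had 0.51 and Ifng 0.48. Heat shock genes of the handling list, 4 of 7 measured, summed to 1353 to 1840 FPKM in the controls and 1864 to 1998 FPKM with DOPAC. Of these, the groups did not overlap in Hsp90aa1 alone, and they overlapped in Dnajb1, Hspa8 and Hsph1. Hsp90aa1 measured 320, 522 and 537 FPKM in control and 648, 628 and 668 FPKM with DOPAC.

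**Figure D5:**
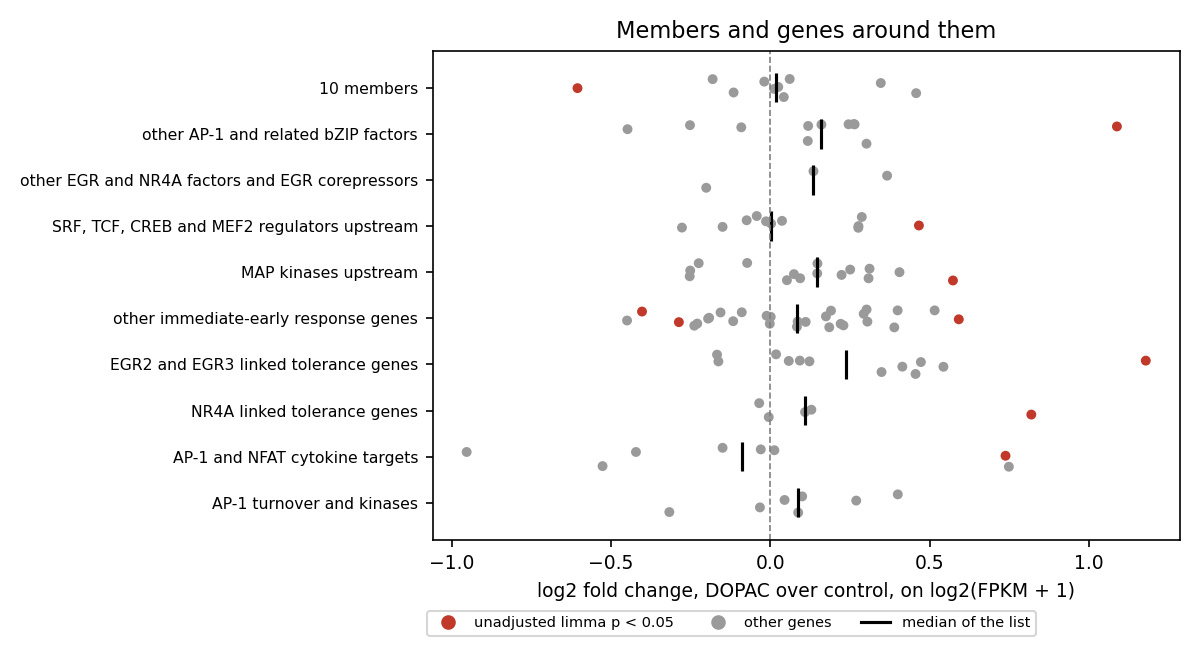
Log2 fold change of each tested gene (points), DOPAC over control on log2(FPKM + 1), for the 10 members and 9 lists of genes around them, with the list median as a bar and an unadjusted limma p under 0.05 in red (vertical scatter has no meaning). The medians lie between -0.090 and 0.24, and Fos is the 1 red point among the members.

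The genes most like the 3 members with the widest range were sought by the mean absolute difference of log2(FPKM + 1), centred on each gene's mean, over the 6 libraries. Closest to Jund were Rpl13-ps6, Mrps34 and Rpl13, at 0.34, 0.39 and 0.46 where Jund itself ranges over 4.13 log2 units. Rpl13, a ribosomal protein gene, measured 548, 82.0 and 83.2 FPKM in control and 399, 64.8 and 78.1 FPKM with DOPAC. Its reads and those of the pseudogene Rpl13-ps6 are uncertain, since the copies share sequence. Closest to Junb were Ptprcap, Rnaset2a and Emc10, at 0.095, 0.12 and 0.13. Closest to Fos were Usf2-ps1, Arfrp1 and Chmp6, at 0.13, 0.14 and 0.15. Arfrp1 measured 9.29, 8.30 and 8.53 FPKM in the control libraries and 5.69, 6.66 and 6.95 FPKM with DOPAC. All these genes were chosen for their likeness to a member, so a pattern shared with it is no separate observation.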

How the data were processed

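RNA-seq libraries were prepared from TRIzol RNA with SMART-Seq HT and Nextera XT kits, per the labels' protocols. Reads were handled with cutadapt 1.9 and HISAT2 2.2.1 on mm10, per the submitters' processing notes, while estimator and annotation release are not stated in the labels. The authors deposited FPKM values, together with a log2 fold change, p-values and adjusted p-values whose test the file headers do not name. Taking log2(FPKM + 1) and subtracting group means gave their log2 fold change to within 1e-06. Low values were searched for steps of whole reads, and at most 19.7% of values lay within 0.05 of a whole number, where an even spread gives 10%. That share is the best of many trial scales and used GENCODE M21 lengths, so the search cannot decide whether such steps are present. Depth is unknown.

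Values were taken as log2(FPKM + 1), genes under a mean of 1 FPKM were left out (288), and R 4.3.3 with limma 3.58.1 (mean-variance trend) fitted DOPAC against control, with Benjamini-Hochberg adjustment over all 10887 genes at 0.05. The test was checked on simulated data. Members and lists were chosen with earlier results of these data known. Named genes were all members, up to 4 genes per other list with an unadjusted p under 0.05 or else the gene with the smallest p, and the 3 genes nearest in pattern (mean of at least 5 FPKM, no predicted models) to each of the 3 members with the widest range. Replicate numbers come from the library names. Deviations of same-numbered libraries from their group means had r across genes of 0.34, 0.16 and 0.28, though no label names a shared animal or day. Deviations cancel within each group, so these values depend on each other and cannot by themselves show pairing by number. DOPAC replicate 2 correlated more with control replicate 3 (0.19) than with its own number, while DOPAC replicate 3 had 0.24 with control replicate 2. The main fit used no pairing, and the replicate number entered as a block only in the alternatives that say so. Positions, GC content and exon lengths came from GENCODE M21 (99.2% of genes tested), and promoters from RefSeq on GRCm38.p6, with 8 of 10 members matched. The title of DOPAC replicate 1 spells the treatment differently, and its treatment label was used. Alternatives were other pseudocounts, filters, scalings, a replicate block, variance models and each library left out. Leaving out both replicate 1 libraries and removing GC and length trends, with and without the block, were chosen after seeing the data. Figures used Python 3.11.15 and matplotlib 3.10.9.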

Additional observations from a re-analysis of the deposited data

How the results depend on the processing

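With limma, 0 genes passed the adjusted threshold with all 6 libraries, and between 0 and 2 with 1 library left out, the 2 being without control replicate 1. There were 167 with library weights, 2 without both replicate 1 libraries (chosen after seeing the data) and 0 with the other alternatives. Members with an unadjusted p under 0.05 numbered 1, between 0 and 1 with 1 library left out, 0 at a mean of at least 5 FPKM, where Fos, Fosl2 and Jun were left out, and 2 with library weights (Fos and Fosl2) or without both replicate 1 libraries (Egr3 and Fos). The 1 member was Fosl2, not Fos, without control replicate 2 and with GC and length trends removed without the block, and there was 0 without control replicate 3. With the replicate block the number was 1 (Fos, limma unadjusted p = 0.0198, adjusted p = 0.698), and the block changed no adjusted call. It moved Dusp1 from an unadjusted limma p of 0.0387 to 0.0744, where an exact permutation test cannot reach 0.05 in this design, and with GC and length trends removed it brought Fos under 0.05 and took Fosl2 over it.

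Fos and Fosl2 kept their signs under all 17 alternatives that could be fitted for them, Fos between -0.76 and -0.38 and Fosl2 between 0.25 and 0.64 with 1 library left out. The other 8 members changed sign under some alternative. With 1 library left out the log2 fold changes ran from -0.16 to 0.0996 for Jun, -0.62 to 0.16 for Junb, -1.41 to 0.70 for Jund, -0.10 to 0.12 for Egr1, -0.15 to 0.12 for Egr2, -0.18 to 0.22 for Egr3, -0.15 to 0.19 for Nr4a1 and 0.05 to 0.54 for Nr4a3. With GC and length trends removed, with or without the replicate block, Jun had 0.059, Junb 0.051 and Jund 0.22. With quantile normalization Egr1 had -0.030, Egr2 -0.046 and Nr4a1 -0.0083, and with equal medians -0.034, -0.046 and -0.016. With library weights Egr1 had -0.014, Egr2 -0.070, Egr3 -0.15 and Nr4a1 -0.11. Without both replicate 1 libraries Egr1 had -0.033, Egr2 -0.092, Egr3 -0.21, Nr4a1 -0.19 and Nr4a3 -0.0072. The cause was not tested.

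Nfil3 and Ndrg1 passed the adjusted threshold with library weights (limma adjusted p = 0.0312 for each). Gadd45b, Dusp1, Map2k1, Crem and Arfrp1 had an unadjusted p above 0.05 with at least 1 library left out. Of the 20 other named genes 14 kept their sign. Those that did not were near Jund or Junb in pattern, with ranges on leaving out 1 library of -1.16 to 0.59 for Rpl13-ps6, -1.31 to 0.37 for Mrps34, -1.12 to 0.61 for Rpl13, -0.70 to 0.15 for Ptprcap, -0.61 to 0.198 for Rnaset2a and -0.63 to 0.022 for Emc10, and with trends removed, with or without the block, 0.18 for Rpl13-ps6 and 0.019 for Ptprcap.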
